A study of Canis lupus familiaris with 186 samples.

Results

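Small leucine-rich proteoglycans are secreted matrix proteins with a core of leucine-rich repeats, most of which carry glycosaminoglycan chains and bind collagen fibrils. The members examined were DCN, LUM, BGN, FMOD, ASPN, OGN, OMD, PRELP, EPYC and KERA, chosen by gene symbol, which makes 10 of the 37952 genes in the count table. Small leucine-rich proteoglycans set the diameter and spacing of collagen fibrils, and several bind growth factors of the TGF-beta family. In the skeleton they are known from bone matrix, from cartilage, and from tendon and other fibrous tissue. Osteosarcoma is a bone tumor in which malignant cells deposit osteoid, and tumors can also form cartilage-like or fibrous matrix.

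The data were mRNA-seq of 186 primary osteosarcomas, each from a different pet dog of the Comparative Oncology Trials Consortium. There were 93 dogs of trial COTC021 and 93 of trial COTC022, and the trial was the only group that the sample labels gave. The libraries came from frozen tissue of appendicular tumors taken before treatment, and normal bone was not among the samples. A tumor piece holds malignant, stromal, vascular and immune cells together, so that fewer cells of a type and less RNA per cell cannot be told apart. Each trial here is a set of individual patients, so p-values measure the spread between dogs, and replicate numbers in the text only name a dog in the order of deposition.

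Library totals ran from 6587631 to 27420857 counts, with a median of 10797162. In 50 libraries, 18 of COTC021 and 32 of COTC022, the column name carried the sign __ (called kind D here, and the other 136 kind S). Their median total was 19440450 counts, against 9851681 in kind S, and what the names mark was not given in the sources used here. Between the kinds 573 of 13422 genes (4.27%) differed, and 0 of 9 members did. The bone markers RUNX2 and ALPL reached 10 counts in 186 of 186 libraries, and IBSP did in 182.

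Libraries from 3 dogs stood apart from the rest. COTC022 replicate 64 had the lowest median correlation with the other libraries, 0.692, the bone sialoprotein gene IBSP at 0.253 CPM (counts scaled to a common library total), the osteoblast transcription factor SP7 at 0.0633 CPM, and the leukocyte gene CD53 at 523 CPM, its highest level in the series. COTC022 replicate 64 was a kind D library, and no fit or correlation within kind D was repeated without it. COTC021 replicate 10 had a median correlation of 0.772, with 0 DCN and 2 LUM counts. COTC022 replicate 41 had a normalization factor of 0.5001. Each slope that lost or gained its call without these 3 libraries, or that was called and moved by over 1.5 times, is given both ways.

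By the RefSeq annotation of the German Shepherd assembly UU_Cfam_GSD_1.0, 9 of the 10 genes lie in 3 tight neighbourhoods. EPYC (31976132 to 32014138), KERA (32056262 to 32064052), LUM (32098606 to 32106158) and DCN (32139738 to 32182940) fill 206.8 kb of chromosome 15. ASPN (99603543 to 99627551), OMD (99645439 to 99655679) and OGN (99661321 to 99681130) share 77.59 kb of chromosome 1. FMOD (699365 to 709547) and PRELP (795591 to 809246) share 109.9 kb of chromosome 38, and BGN (122510823 to 122524101) is on chromosome X. These are whole gene spans, exons and introns together. The chromosome 1 genes lie inside the span of the centromere gene CENPP, and the Spearman rho of CENPP was 0.01 with ASPN, 0.16 with OGN and 0.24 with OMD. The library kit keeps strand, but whether the counting used it was not given in the sources used here.

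The first question was how much of each transcript the tumors held. The 10 genes together took between 0.0117% and 2.29% of a library's counts, with a median of 0.608%. At least 10 counts were present in 186 of 186 libraries for BGN, OGN and OMD, in 184 for DCN and LUM, in 182 for FMOD and ASPN, in 180 for PRELP, in 123 for KERA and in 7 for EPYC. Because transcript lengths were not used, levels were compared between dogs and not between genes.

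Decorin (DCN), which binds collagen fibrils and sequesters TGF-beta, ran from 0 to 5634 CPM in COTC021, with a median of 852. In COTC022 it ran from 2.52 to 4225 CPM, with a median of 760. The trials overlapped over nearly all of this range, and the 0 in COTC021 replicate 10 allows up to 0.404 CPM, a limit of 3 counts that covers counting error only.

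Lumican (LUM), which limits the lateral growth of fibrils, ran from 0.269 to 8895 CPM with a median of 1769 in COTC021, and from 0.0812 to 8163 CPM with a median of 2124 in COTC022. The lowest level, 1 count, was in COTC022 replicate 21, where DCN stood at 2.52 CPM and FMOD at 0 counts. In COTC021 replicate 64 DCN stood at 0.491 CPM and LUM at 6.88 CPM. Low DCN and low LUM thus fell in the same dogs, while BGN was 493 CPM in the first of these tumors and 1147 CPM in the other.

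Biglycan (BGN), a major proteoglycan of bone matrix and the closest relative of decorin, varied least of the members tested. It ran from 77.1 to 8873 CPM with a median of 1489 in COTC021, and from 65.8 to 4589 CPM with a median of 1411 in COTC022. The interquartile range of its log2 CPM was 1.01, and 66.7% of the 13422 genes had a smaller one.

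Asporin (ASPN), which has an aspartate-rich tail in place of glycosaminoglycan attachment sites, varied most. It ran from 0.191 to 5493 CPM with a median of 353 in COTC021, and from 0.248 to 3105 CPM with a median of 357 in COTC022. The 90th percentile was 182 times the 10th. Its log2 interquartile range of 3.81 was wider than that of 99.3% of genes, against a median over all genes of 0.78. COTC022 replicate 53 held 0.671 CPM of ASPN beside the highest FMOD of the series, 5131 CPM.

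Fibromodulin (FMOD), which carries keratan sulfate and helps to assemble collagen fibrils in tendon, and PRELP, a protein of cartilage and basement membranes with an arginine- and proline-rich end, were nearly as variable. FMOD ran from 0.417 to 3032 CPM with a median of 118 in COTC021, and from 0 to 5131 CPM with a median of 78.5 in COTC022. PRELP ran from 0.328 to 2348 CPM with a median of 64.9 in COTC021, and from 0 to 984 CPM with a median of 33.8 in COTC022. Their 90th percentiles were 84.9 and 92.9 times their 10th percentiles, and both trials spanned high and low tumors. The highest PRELP was in COTC021 replicate 54, which also had the highest level of the cartilage collagen gene COL2A1, 49245 CPM.

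Osteoglycin (OGN) ran from 2.38 to 2609 CPM with a median of 146 in COTC021, and from 1.65 to 1972 CPM with a median of 163 in COTC022. Osteomodulin (OMD), also called osteoadherin and known as a product of osteoblasts in mineralized bone, ran from 2.59 to 2975 CPM with a median of 447 in COTC021. In COTC022 OMD ran from 5.25 to 1850 CPM with a median of 440. The 90th percentile was 35.1 times the 10th for OGN and 16.3 times for OMD, and for neither gene did the trials separate.

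Keratocan (KERA), the keratan sulfate proteoglycan of the cornea, was low in nearly all tumors. Its median was 1.49 CPM in COTC021 and 1.42 CPM in COTC022, at 16 counts in each, and 9 libraries held 0 counts, which allow between 0.175 and 0.404 CPM depending on depth. A single tumor, COTC021 replicate 81, reached 5161 counts or 409 CPM, against 28.6 CPM in the next. In this tumor OMD was 4.99 CPM, IBSP was 2.93 CPM and SP7 was 0.317 CPM. Epiphycan (EPYC), known from growth plate cartilage, was at 0 counts in 79 libraries, where the limit is 0.132 to 0.455 CPM, and at 1 count in the median library. It reached 95 counts, 8.80 CPM, in COTC022 replicate 20, and 27 counts in the next. EPYC did not pass the filter on low counts and was not tested further, which leaves 9 members.

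**Figure D1:**
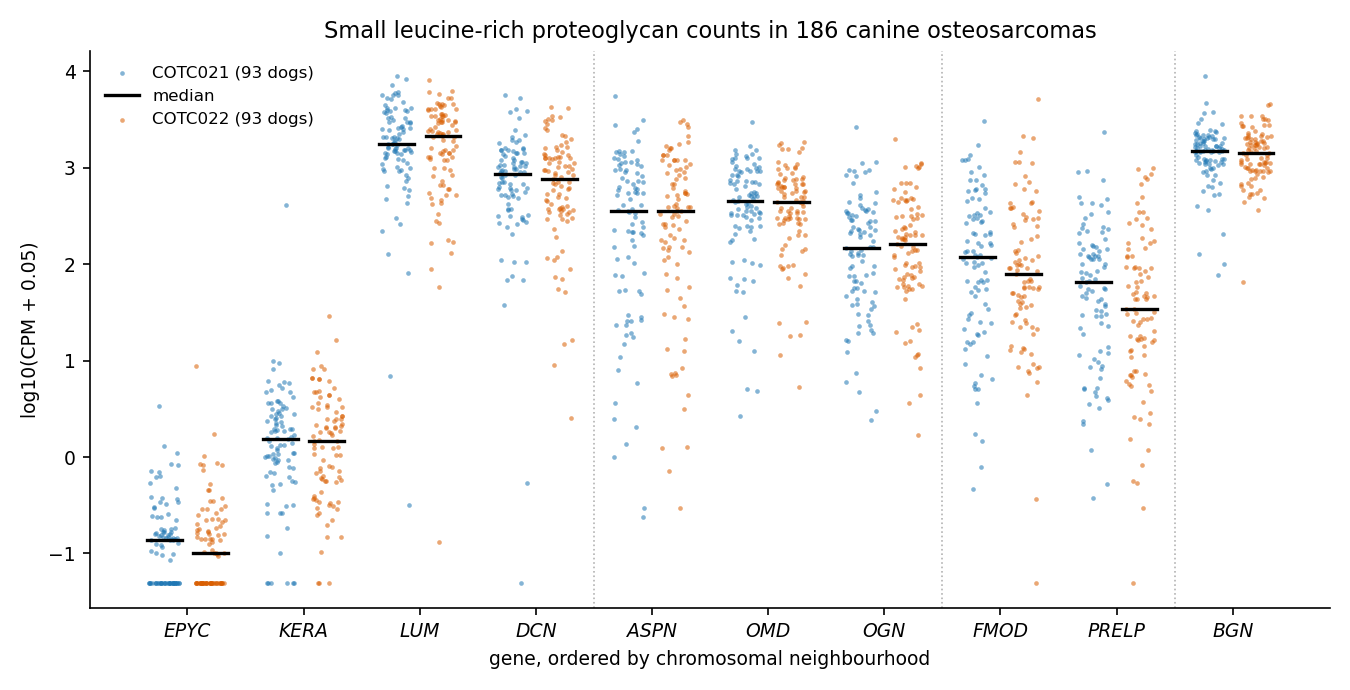
Level of each gene in each of the 186 tumors, as log10 of CPM plus 0.05, by trial (93 dogs each); points are dogs, black bars medians, and dotted lines part the chromosomal neighbourhoods. Points at the floor are libraries with 0 counts. EPYC lies at the floor in 79 libraries, ASPN, FMOD and PRELP spread widest, BGN is compact, and the trials overlap for every gene.

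The trials were compared with limma-voom across 13422 genes. Of 9 members, 0 differed at a Benjamini-Hochberg adjusted p under 0.05, and 2 of 13422 genes (0.0149%) did, while 1332 genes had an unadjusted p under 0.05. The log2 differences of the members, COTC022 over COTC021, ran from -0.60 for PRELP (SE 0.39, adjusted p = 0.649) to 0.18 for OGN (SE 0.30, adjusted p = 0.890), so no member differed beyond the spread between dogs. DESeq2 called 0 members of 91 genes. The edgeR quasi-likelihood test called 1 member, KERA, lower in COTC022 by a log2 difference of -1.2996 (adjusted p = 0.0274). Without the tumor with 5161 KERA counts, the same edgeR test gave KERA 0.39 (adjusted p = 0.530).

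The next question was which members rose and fell together. All 36 pairs of the 9 members were correlated over the 186 dogs on normalized log2 CPM. Spearman's rho was above 0 in 35 pairs, with a median of 0.30, and its unadjusted permutation p was under 0.05 in 30 pairs (33 for Pearson's r). Beside this, the median rho of a member with all other genes lay between -0.005 (ASPN) and 0.002 (LUM). The 95th percentile ran from 0.24 (KERA) to 0.33 (PRELP). How many pairs of all genes reach a p under 0.05 was not counted. For the 7 pairs of the same neighbourhood rho ran from 0.16 to 0.83 with a median of 0.64, and for the 29 pairs on different chromosomes from -0.09 to 0.59 with a median of 0.29. These summaries are descriptions, since the pairs share genes and libraries.

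DCN and LUM, neighbours on chromosome 15, had the closest relation, with rho 0.83 and r 0.90, each at a permutation p of 1e-05, the smallest that 100000 resamples can give. Among 13421 other genes LUM was the closest to DCN and DCN the closest to LUM. Without the 2 dogs farthest from the median in DCN r was 0.87. Spearman's rho was 0.81 within COTC021, 0.85 within COTC022, 0.87 in kind D, 0.82 in kind S and 0.83 without the 3 libraries that stood apart.

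KERA followed the same pair despite its low counts. Its closest genes were DCN, with rho 0.64 and r 0.63, and LUM, with rho 0.62 and r 0.58, at a permutation p of 1e-05 each. Across trials, library kinds and the fits without outlying dogs, rho stayed between 0.62 and 0.66 with DCN and between 0.53 and 0.71 with LUM. Without the 2 dogs farthest from its median, r was 0.66 with DCN and 0.62 with LUM.

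FMOD and PRELP on chromosome 38 had rho 0.79 and r 0.78 (permutation p 1e-05 for both), and each was the other's closest gene of 13421. Without the 2 dogs farthest in FMOD r was 0.77, and without the 3 libraries that stood apart rho was 0.79. Spearman's rho was 0.83 within COTC021, 0.72 within COTC022, 0.83 in kind D and 0.76 in kind S.

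On chromosome 1 the neighbours were not equally close. ASPN and OGN had rho 0.72 and r 0.67 (permutation p 1e-05 for both), with rho 0.74 within COTC021, 0.70 within COTC022, 0.73 in kind D and 0.72 in kind S. Without the 2 dogs farthest in OGN r was 0.66, and without the 3 libraries rho was 0.71. ASPN was the closest gene to OGN, and OGN ranked 5th for ASPN. OMD, which lies between them, had rho 0.16 and r 0.17 with ASPN (permutation p = 0.0297 and 0.0212), and 2477 was its rank among ASPN's 13421 genes. That relation missed 0.05 in 5 of 7 alternatives. With OGN, OMD had rho 0.29 and r 0.37 (permutation p = 0.00011 and 1e-05), and it ranked 486 among OGN's 13421 genes. That rho lay between 0.18 and 0.57 in the 7 alternatives, each with a permutation p under 0.05.

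The relation of OMD to the chromosome 15 genes varied with the libraries and the measure. Over all dogs its rho was 0.08 with DCN (p = 0.280), 0.12 with LUM (p = 0.0946) and -0.09 with KERA (p = 0.235), none of which passed the permutation test. Pearson's r was 0.20 with DCN (p = 0.00661) and 0.25 with LUM (p = 0.0015), and without the 3 libraries that stood apart 0.12 (p = 0.119) and 0.15 (p = 0.0398). In the kind D libraries rho was 0.38 with DCN (p = 0.00611) and 0.37 with LUM (p = 0.00928), against -0.02 and 0.03 in kind S. BGN was closest to FMOD (rho 0.47), PRELP (rho 0.43) and LUM (rho 0.35), and had rho 0.05 with ASPN (p = 0.483).

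**Figure D2:**
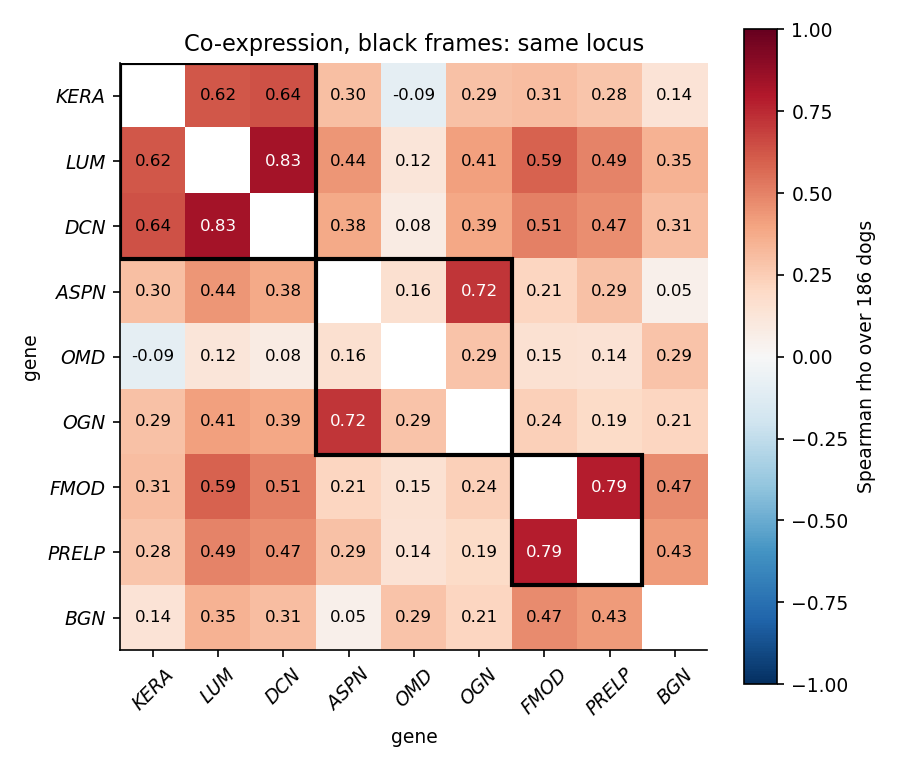
Spearman's rho between the 9 tested genes over 186 dogs; both axes list the genes in chromosomal order, black frames mark genes of the same neighbourhood, and the color scale runs from -1 to 1. DCN with LUM (0.83), FMOD with PRELP (0.79) and ASPN with OGN (0.72) are the darkest cells, and the column of OMD is pale.

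The other genes of the same neighbourhoods were compared with the members. Of those within 200 kb, 15 passed the filter and made 31 pairs with members, with a median rho of 0.24 and a range from -0.04 to 0.52. The highest was that of ECM2, itself a leucine-rich repeat matrix gene, with ASPN, and ECM2 had rho 0.47 with OGN. Leaving ECM2 out, the highest was 0.42, between ZNF275 and BGN. No neighbour of the chromosome 15 genes passed the filter. These pairs are a description and were not tested against the members' pairs.

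**Figure D3:**
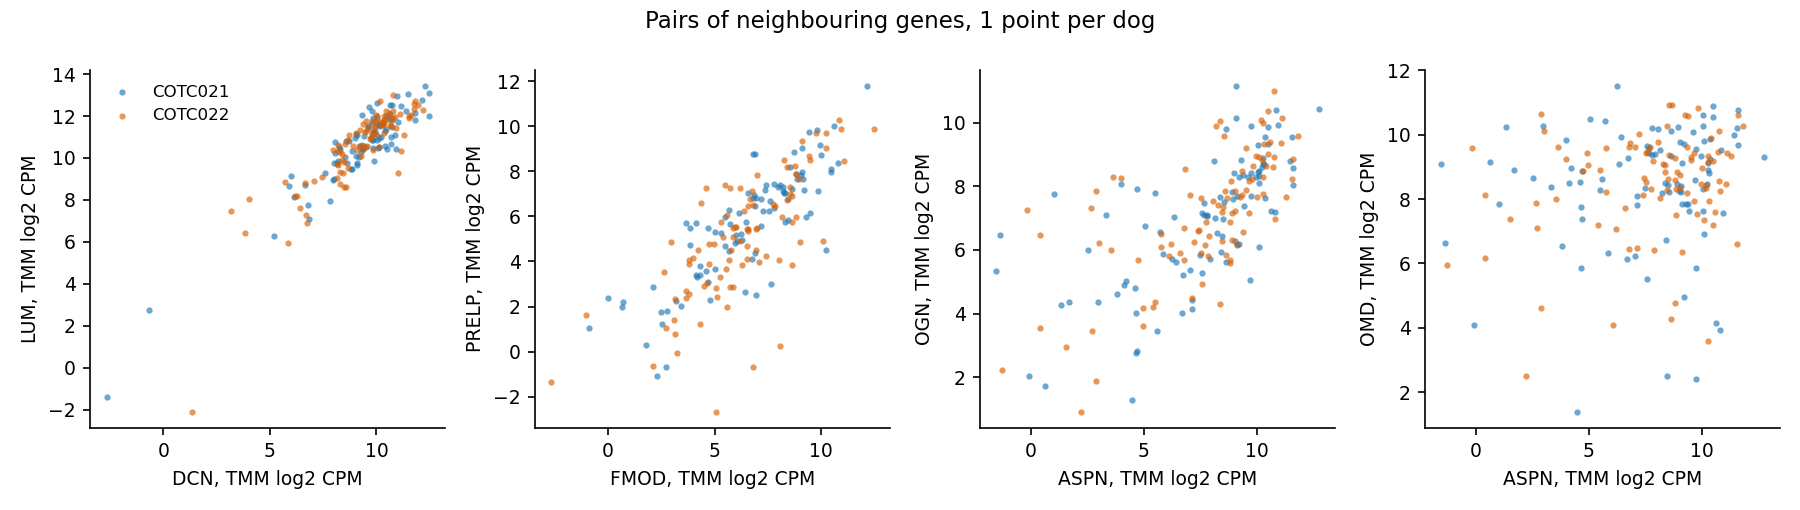
Normalized log2 CPM of 4 pairs of neighbouring genes, 1 point per dog, colored by trial. DCN with LUM, FMOD with PRELP, and ASPN with OGN rise along a diagonal, whereas OMD shows a loose cloud against ASPN (rho 0.16).

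The genes most like each member over the 186 dogs differed between the neighbourhoods, and since they were picked for a high rho no test is given. After LUM and KERA, the closest gene to DCN was CCDC80, a secreted matrix protein (rho 0.59). LUM was followed by PHETA2 and HHIPL1 (rho 0.64 each). BGN was closest to SPARC, the osteonectin gene of bone matrix (rho 0.57), ZDHHC9 (rho 0.56) and C1QTNF1 (rho 0.55).

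ASPN was closest to POSTN, which encodes the fibrous matrix protein periostin (rho 0.77), the Wnt receptor gene FZD1 (rho 0.74) and ANGPTL2 (rho 0.74). OGN was followed after ASPN by HAPLN1, the link protein that holds aggrecan to hyaluronan in cartilage (rho 0.65), and EDIL3 (rho 0.64). OMD was closest to PTH1R, the parathyroid hormone receptor of osteoblasts (rho 0.60), RHBDL2 (rho 0.58) and SLC8A3 (rho 0.58).

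FMOD shared FAM180A with PRELP, at rho 0.69 and 0.64, and the third gene was HIF1A for FMOD (rho 0.63) and ITGBL1 for PRELP (rho 0.68). The third gene for KERA was DKK3 (rho 0.48).

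To place the members beside genes of bone, cartilage, fibrous tissue and immune cells, each dog received 4 scores. Each score is the mean standardized log2 CPM of a gene list that holds no member, scaled to an SD of 1. A score cannot tell tumor matrix from normal tissue in the same piece. The osteoblast score used 9 genes (such as RUNX2, SP7, ALPL and IBSP), the cartilage score 12 (such as ACAN, COL2A1 and SOX9), the fibroblast score 11 (such as DPT, PI16 and MFAP5), and the GS-1 score the 27 immune-related genes of the study's first signature. The slopes below are log2 changes per SD of a score, from limma-voom with the trial as covariate, with p adjusted over 13422 genes. The scores were themselves related, from r -0.36 between the osteoblast and GS-1 scores to r 0.29 between the cartilage and fibroblast scores. A model with all 4 scores together was therefore fitted too, and its slopes are named where a call changed or a called slope moved by over 1.5 times.

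Along the osteoblast score OMD rose steeply, BGN rose slightly, and ASPN and KERA fell. The slope of OMD was 1.24 (SE 0.10, 95% interval 1.05 to 1.43, adjusted p = 1.53e-24), a 2.36-fold rise per SD. It passed in all 13 alternatives, between 1.02 and 1.27, and the correlation of its level with the score was r 0.69 and rho 0.56. The lowest osteoblast score, -3.36, was that of COTC022 replicate 64, which had 5.25 CPM of OMD.

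The slope of BGN was 0.27 (SE 0.07, adjusted p = 0.00128) and without the 3 libraries that stood apart 0.18 (adjusted p = 0.0222). Within COTC021 it was 0.18 (adjusted p = 0.210) and in the kind S libraries 0.20 (adjusted p = 0.0528). The slope of ASPN was -0.73 (SE 0.22, adjusted p = 0.00571). It kept its sign in 13 of 13 alternatives and its call in 9, and within COTC021 it was -0.65 (adjusted p = 0.104), within COTC022 -0.85 (adjusted p = 0.0541). In the kind D libraries it was -0.35 (adjusted p = 0.647), and in DESeq2 and edgeR -0.39. The slope of BGN was 0.16 in DESeq2 and edgeR and 0.44 in the kind D libraries.

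The slope of KERA was -0.49 (SE 0.13, adjusted p = 0.00127) and without the 3 libraries -0.80 (adjusted p = 6.22e-09). Within COTC022 it was -0.14 (adjusted p = 0.691) and in the kind D libraries -0.03 (adjusted p = 0.965). In DESeq2 it was -1.21, and without the tumor with 5161 KERA counts -0.37 in limma-voom. The osteoblast score of that tumor was -2.75, and DESeq2 was not refitted without it. DCN, at -0.35 (adjusted p = 0.0635), and LUM, at -0.28 (adjusted p = 0.139), missed the threshold. Without the 3 libraries their slopes were -0.48 (adjusted p = 0.00400) and -0.42 (adjusted p = 0.0106), and DESeq2 and edgeR called both genes lower on all dogs. With all 4 scores in the model their slopes were -0.10 (adjusted p = 0.677) and -0.08 (adjusted p = 0.762).

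FMOD (-0.07), OGN (-0.09) and PRELP (-0.33) had adjusted p-values from 0.167 to 0.796. DESeq2 and edgeR called OGN lower, at -0.32 in each (adjusted p = 0.0210 and 0.0469). In all, 4 of 9 members were called along the osteoblast score, 2 higher and 2 lower, beside 38.8% of all genes, 18.7% higher and 20.1% lower, so the count says nothing of the members as a group. The median slope was -0.28, against 0.00 for all genes. Of the markers of other cells, 4 of 4 osteoclast genes rose with this score (ACP5 by 0.97). Of the fibroblast score genes 6 of 11 fell and 2 rose, and of the smooth muscle and myofibroblast genes 4 of 6 fell and 1 rose. Also lower were 2 of 4 endothelial genes, both tendon genes tested, the adipocyte gene FABP4, 3 of 4 macrophage genes (CD163 at -0.61) and both T cell genes tested (CD3E at -0.81). The part of these cells in the members' slopes was not tested.

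OMD and its neighbours took different courses along this score. The log2 difference OMD minus ASPN rose by 1.91 per SD (r 0.59, rho 0.56), and OMD minus OGN by 1.32 per SD (r 0.61, rho 0.53). OMD minus DCN rose by 1.59 per SD (r 0.65, rho 0.57). Within each trial and each kind of library r of these 3 differences lay between 0.50 and 0.68. The pairs were chosen after their values were seen, so no p is given.

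Along the cartilage score 5 of 9 members rose and 0 fell, beside 31.4% of all genes called, 15.7% higher and 15.7% lower. The median slope was 0.50, against 0.00 for all genes. ASPN had the steepest slope of the members, 1.94 (SE 0.20, 95% interval 1.54 to 2.33, adjusted p = 1.36e-15), a 3.83-fold rise per SD. The lowest ASPN levels lay at scores below 0, and a bend in the relation was not tested. The 20 tumors with under 10 CPM of ASPN had cartilage scores from -2.37 to -0.0518, and the lowest ASPN at a score above 0 was 81.7 CPM (r 0.59, rho 0.61).

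OGN rose by 1.13 (SE 0.13, adjusted p = 1.07e-12) and PRELP by 1.00 (SE 0.18, adjusted p = 3.26e-06). ASPN, OGN and PRELP passed in all 13 alternatives, and in the model with all 4 scores their slopes were 1.64, 0.96 and 0.71 in the order ASPN, OGN, PRELP. In both DESeq2 and edgeR these slopes were 1.12, 0.92 and 0.45, and without the filter on low counts that of ASPN was 1.16. OMD rose by 0.50 (SE 0.13, adjusted p = 0.00137), and by 0.87 in the kind D libraries, but missed the threshold within COTC021, at 0.44 (adjusted p = 0.122), in the kind S libraries, at 0.36 (adjusted p = 0.109), and in edgeR, at 0.25 (adjusted p = 0.0741).

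FMOD rose by 0.59 (SE 0.19, adjusted p = 0.0123), a call lost in 8 of 13 alternatives, among them both count models, each trial and each kind of library. With all 4 scores in the model its slope was 0.23 (adjusted p = 0.402). DCN, at 0.34, and LUM, at 0.34, did not pass (adjusted p = 0.0835 and 0.0704), and in the model with all 4 scores they stood at -0.01 and 0.09. BGN (0.13) and KERA (0.19) did not pass either, and DESeq2 and edgeR called KERA higher, at 0.46 and 0.45. The difference ASPN minus OMD, chosen after seeing its values, rose by 1.28 log2 per SD of the cartilage score (r 0.40, rho 0.42). Along this score 3 of 4 macrophage genes (CSF1R at -0.39), 3 of 4 osteoclast genes (DCSTAMP at -0.69) and both T cell genes tested fell. Of the fibroblast score genes 6 of 11 rose and 0 fell, and of the smooth muscle and myofibroblast genes 3 of 6 rose and 0 fell. Of all genes 15.7% rose and 15.7% fell. The part of these cells in the members' slopes was not tested.

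Along the fibroblast score 8 of 9 members rose and 0 fell, beside 41.7% of all genes called, 21.6% higher and 20.1% lower, and the median slope was 0.83, against -0.01 for all genes. PRELP rose by 1.46 (SE 0.17, adjusted p = 9.83e-14), ASPN by 1.43 (SE 0.21, adjusted p = 7.08e-09) and FMOD by 1.23 (SE 0.18, adjusted p = 4.56e-09). DCN rose by 1.07 (SE 0.15, adjusted p = 2.06e-10), LUM by 0.83 (SE 0.15, adjusted p = 8.50e-07) and KERA by 0.81 (SE 0.12, adjusted p = 2.10e-09). These 6 genes passed in all 13 alternatives, but the size of the slope depended on the model. In DESeq2 FMOD rose by 0.37, DCN by 0.53, ASPN by 0.69, LUM by 0.44 and PRELP by 0.85, each over 1.5 times less than in limma-voom, and edgeR gave slopes within 0.01 of these. KERA rose by 1.10 in DESeq2, which was not refitted without the tumor with 5161 KERA counts, whose fibroblast score was 1.16.

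In the model with all 4 scores the slope of ASPN was 0.77, while DCN (1.08), FMOD (1.22), PRELP (1.31) and LUM (0.79) stayed near their values alone. OGN rose by 0.55 (SE 0.15, adjusted p = 0.00119), but its slope of 0.27 in that model did not pass (adjusted p = 0.135), nor did those in edgeR (0.29, adjusted p = 0.120) and within COTC022 (0.51, adjusted p = 0.0681). BGN rose by 0.22 (SE 0.07, adjusted p = 0.0107), a call lost in 6 of 13 alternatives, among them the fit without the 3 libraries that stood apart (0.13, adjusted p = 0.121), both count models and COTC022 alone. With all 4 scores in the model it was 0.35.

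OMD was the member that did not rise with the fibroblast score. Its slope was -0.16 (SE 0.13, 95% interval -0.42 to 0.10, adjusted p = 0.335). The difference FMOD minus OMD rose by 1.36 log2 per SD (r 0.47, rho 0.42), and DCN minus BGN by 0.81 (r 0.43, rho 0.40), both chosen after seeing their values.

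Markers of other cells moved with the fibroblast score too, beside 21.6% of all genes higher and 20.1% lower. All 4 endothelial markers rose (VWF by 0.81, PECAM1 by 0.49), as did 4 of 5 skeletal muscle markers (CKM by 0.81, MYH2 by 0.76). So did 5 of 6 smooth muscle and myofibroblast markers (MYH11 by 1.54, POSTN by 1.45). Of 5 genes listed as tendon markers 2 were tested, and both rose (THBS4 by 1.63, CILP by 0.83). SCX, MKX and TNMD were not tested. Of 3 listed adipocyte genes only FABP4 was tested, and it rose by 1.56. Both lists were thus mostly untested. All 5 proliferation markers fell (BUB1 at -0.36, CCNB1 at -0.34). The part of these cells in the members' slopes was not tested.

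**Figure D4:**
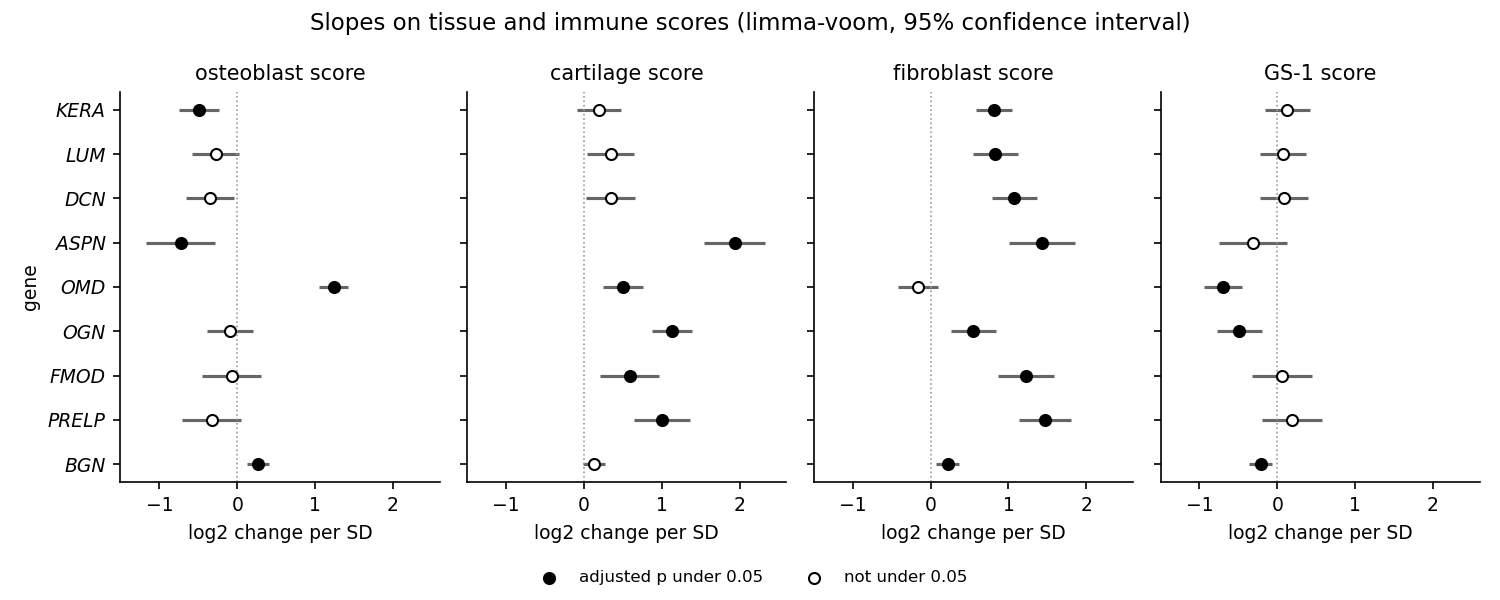
Slope of each of the 9 genes on the 4 scores, as log2 change per SD of the score with its 95% confidence interval, from limma-voom over 186 dogs; filled points passed an adjusted p of 0.05. OMD is the far right point on the osteoblast score (1.24), ASPN on the cartilage score (1.94), and 8 of 9 points lie right of 0 and are filled on the fibroblast score.

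**Figure D5:**
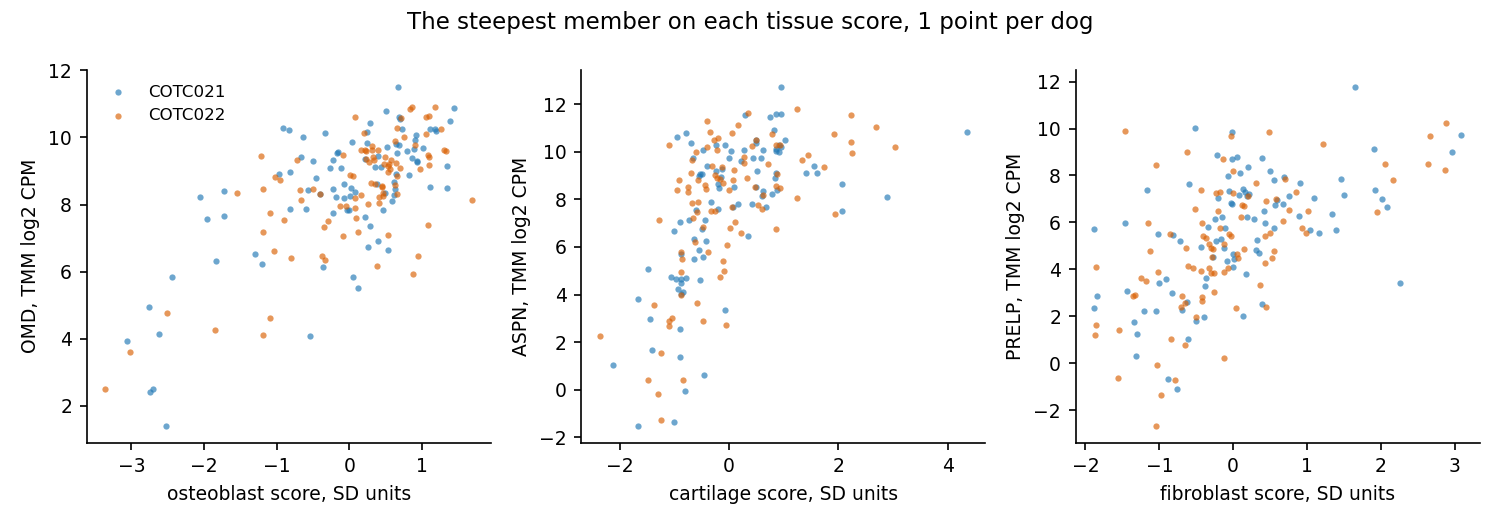
Normalized log2 CPM of the member with the steepest slope on each tissue score, 1 point per dog, colored by trial: OMD against the osteoblast score, ASPN against the cartilage score and PRELP against the fibroblast score. OMD rises with the osteoblast score (r 0.69, rho 0.56), and PRELP spreads widely around its rise. The 20 tumors with under 10 CPM of ASPN have cartilage scores from -2.37 to -0.0518.

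The last score asked whether the members followed the immune-related signature on which the study grouped its dogs. Along the GS-1 score 3 of 9 members fell and 0 rose, beside 49.5% of all genes called, 26.8% lower and 22.7% higher, so the count lies near that of all genes. The slope of OMD was -0.70 (SE 0.12, adjusted p = 4.17e-07), that of OGN -0.49 (SE 0.15, adjusted p = 0.00303) and that of BGN -0.21 (SE 0.07, adjusted p = 0.00898). Without the 3 libraries that stood apart, 1 of which had a GS-1 score of 3.6, the slopes were -0.58 for OMD (adjusted p = 4.87e-05), -0.35 for OGN (adjusted p = 0.0444) and -0.10 for BGN (adjusted p = 0.257). Within COTC021 and within the kind S libraries OMD alone of the 3 passed. In kind S the slopes were -0.53 for OMD, -0.19 for OGN (adjusted p = 0.413) and -0.11 for BGN (adjusted p = 0.344), and in kind D they were -1.08, -0.90 and -0.41 in the same order. The library with a GS-1 score of 3.6 is of kind D, and its part in the kind D slopes was not tested.

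With all 4 scores in the model none of these 3 genes passed, and OMD stood at -0.17 (adjusted p = 0.190), OGN at -0.32 (adjusted p = 0.0656) and BGN at -0.18 (adjusted p = 0.0599). Along the GS-1 score 6 of 9 osteoblast genes and 8 of 12 cartilage genes also fell, beside 26.8% of all genes lower and 22.7% higher. All 4 macrophage markers (CD163 by 1.38), all 4 endothelial markers (PECAM1 by 0.35) and both T cell markers tested (CD3E by 1.90) rose, and their part in the members' slopes was not tested.

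DCN (0.08), LUM (0.07), FMOD (0.06), PRELP (0.19), KERA (0.13) and ASPN (-0.31) did not pass with the GS-1 score. In the 50 kind D libraries DCN fell by 0.54 (adjusted p = 0.0380). COTC022 replicate 64, with a GS-1 score of 3.6, is among these libraries. Neither the kind D fit nor the comparison of the kinds that follows was repeated without it. The slopes on GS-1 differed between the kinds of library at an unadjusted p under 0.05 for 8 of 9 members and 1081 of 13422 genes, and at an adjusted p under 0.05 for 0 members and 3 genes. DESeq2 called ASPN lower (-0.34, adjusted p = 0.0377). KERA was called higher in the kind S libraries (0.50, adjusted p = 0.0184), by DESeq2 (0.90, adjusted p = 3.09e-09) and by edgeR (0.91, adjusted p = 5.63e-08). Without the tumor with 5161 KERA counts, whose GS-1 score was 1.75, edgeR gave 0.10 (adjusted p = 0.553).

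Relatives, partners and modifying enzymes of the members were followed along the same scores. Of all genes, 18.7% rose and 20.1% fell with the osteoblast score, and 15.7% rose and 15.7% fell with the cartilage score. With the fibroblast score 21.6% rose and 20.1% fell, and with GS-1 22.7% rose and 26.8% fell. A count near these shares, here or in the lists below, says nothing of the list as a group. Of 8 other leucine-rich repeat matrix genes, 6 were tested, and 5 rose with the cartilage score (CHADL by 1.27, PODN by 0.97, CHAD by 0.76) and 5 with the fibroblast score (PODN by 1.87, ECM2 by 0.51). With the osteoblast score CHAD, encoding chondroadherin, rose by 1.00 and PODN, encoding podocan, fell by 1.09.

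The collagens of the fibril and its surface, to which the members bind, rose with the fibroblast score in 12 of 12 genes (COL14A1 by 1.67, COL3A1 by 1.2961) and with the cartilage score in 11 of 12 (COL11A1 by 1.83, COL3A1 by 1.26). With the osteoblast score 6 of 12 fell (COL14A1 at -0.81, COL3A1 at -0.71) and COL1A2, a chain of type I collagen, rose by 0.33. With the GS-1 score 4 of 12 fell, COL1A2 at -0.34 and COL1A1 at -0.28 among them.

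The next list held the enzymes that build the linkage region and the chondroitin or dermatan sulfate chains. Of 20 tested, 11 rose and 1 fell with the cartilage score (XYLT1, which starts the chain, by 0.61, CHSY3 by 0.53), and 9 rose and 1 fell with the fibroblast score (the dermatan sulfate epimerase gene DSEL by 0.79). With the osteoblast score 6 rose and 7 fell (DSEL at -0.61), and with GS-1 3 rose and 4 fell (UST, a sulfotransferase, at -0.39). Of 6 keratan sulfate enzymes, 1 rose with the cartilage score (B3GNT7 by 0.42), 3 rose with the fibroblast score (B4GALT1 by 0.21), 1 rose and 1 fell with the osteoblast score (B3GNT2 at -0.37), and 2 rose with GS-1 (B3GNT2 by 0.27).

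Ligands and receptors that members are known to bind were split. Of 11, 5 rose and 4 fell with the osteoblast score (BMP4 by 0.89, TGFB1 by 0.57, and TLR4, a receptor of biglycan, at -0.56), and 5 rose and 3 fell with the cartilage score (TGFB3 by 0.50). With the fibroblast score 3 rose and 2 fell (EGFR, a receptor of decorin, by 0.63), and with GS-1 3 rose and 6 fell (TLR4 by 1.00). Of 11 processing and crosslinking enzymes, 9 rose and 1 fell with the fibroblast score (TLL1, which cleaves proforms of matrix proteins, by 0.86, and MMP13 at -0.66), 8 rose with the cartilage score (MMP2 by 0.58), 3 rose and 5 fell with the osteoblast score (MMP13, a collagenase of bone and growth plate, by 1.4989), and 4 fell with GS-1 (PCOLCE at -0.35).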

How the data were processed

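RNA from frozen tumors was made into TruSeq Stranded mRNA libraries and sequenced in pairs on a NovaSeq. The authors trimmed reads with Cutadapt, aligned them with STAR 2.7.0f to the dog assembly GSD_1.0 and quantified genes with RSEM 1.3.1; the values they deposited are RSEM's expected counts without normalization, of which 3.07% were not whole. Of 198 columns, 12 matched no sample and were not used. Trials came from the sample titles. The study's GS-1 clusters, DFI and OSv are not analysed here, and a continuous GS-1 score was used in place of the clusters.

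Counts were rounded, filtered with filterByExpr at a minimum of 10 counts, a minimum proportion of 0.5 and a large-group size of 5 (13422 of 37952 genes kept), TMM-normalized and fitted with limma-voom (limma 3.58.1, edgeR 4.0.16, R 4.3.3). Correlations used log2 CPM with a prior count of 2, and permutation tests were two-sided with 100000 resamples. Alternatives were DESeq2 1.42.0, edgeR's quasi-likelihood test, no filter, the kind of column name (with or without the sign __) as covariate, each trial, each kind, all 4 scores together and left-out dogs. The scripts were tested on simulated counts. RSEM divides reads that match several genes, so overlapping or similar genes can share counts. The text names the members, for each tested member the 3 genes of highest rho that carry a gene name, and for each list the largest slopes. The members and lists were chosen with earlier results of these data known. Depth, from 6587631 to 27420857 counts, limits EPYC and KERA. Floors cover counting error only, whereas the confidence intervals of the slopes come from limma-voom and rest on the spread between dogs.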

Additional observations from a re-analysis of the deposited data

How the results depend on the processing

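No paired analysis was possible because each dog gave 1 tumor and replicate numbers are only an order of deposition. Leaving out the 3 libraries that stood apart, or the tumor with the most KERA, was chosen after seeing the data; so were the differences between members. Depth limits EPYC and KERA, and the cause of the changes below was not tested.

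Members called moved in the trial comparison to 1 (edgeR); along the osteoblast score to 7 (DESeq2), and to 2 within each trial and within the kind D libraries; along the cartilage score to 3 within COTC021 and within kind S; along GS-1 to 5 (DESeq2), 1 (COTC021) and 0 (all 4 scores in the model). Where no count of all genes from the same fit is given, a count of members says nothing of the members as a group. On all dogs limma-voom called 38.8% of all genes along the osteoblast score and 49.5% along GS-1. Genes called moved in the trial comparison to 91 (DESeq2), 129 (edgeR), 102 (edgeR without the tumor with the most KERA), 0 (kind D) and 8 (kind S). With fewer dogs, genes called in the kind D libraries, COTC021 and COTC022 were 1869, 3283 and 2841 for the osteoblast score and 978, 1818 and 1962 for the cartilage score, which had 2309 in kind S. For the fibroblast score they were 1687 (kind D) and 2507 (COTC022), and for GS-1 3261 (kind D) and 3706 (COTC021). Without the filter 12722 of 30014 genes were called along the osteoblast score, against 5202 of 13422 with it. With all 4 scores 2766 were called along the cartilage score.

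Signs of slopes turned only where limma-voom did not call them on all dogs. The trial differences, of which limma-voom called 0, turned as well. They kept their sign in 2 of 8 alternatives for BGN, 3 for KERA, 4 each for ASPN and OMD, and 7 or 8 for the other members. The trial difference of ASPN was -1.74 in kind D (adjusted p = 0.763) and 0.82 in kind S (adjusted p = 0.482). On the osteoblast score FMOD was 0.0342 (DESeq2), 0.0352 (edgeR), 0.38 (COTC022) and 0.23 (all 4 scores), OGN 0.0788 (COTC022) and PRELP 0.0557 (all 4 scores), and in the kind D libraries DCN was 0.0173, LUM 0.19, FMOD 0.56, OGN 0.31 and PRELP 0.0547. On the cartilage score KERA was -0.0779 (COTC021), and with all 4 scores DCN was -0.0116 and BGN -0.0252. On the fibroblast score OMD was 0.33 (kind D), 0.14 (all 4 scores) and 0.0377 (without the 2 dogs farthest in score). On GS-1 FMOD was -0.27 (DESeq2 and edgeR) and -0.26 (edgeR without the tumor with the most KERA), ASPN 0.10 (kind S) and KERA -0.0370 (COTC022). In COTC021 DCN was -0.0638 and LUM -0.17, with all 4 scores DCN was -0.18, LUM -0.0905 and KERA -0.0478, and in the kind D libraries DCN was -0.54, LUM -0.48, FMOD -0.48, PRELP -0.25 and KERA -0.20. For the 7 pairs of neighbouring members, rho kept its sign and its permutation p under 0.05 in 7 of 7 alternatives, except for ASPN with OMD, which missed 0.05 in 5.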
